A study of Danio rerio with 12 samples.

Results

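Set apart here are 156 of 15502 probe sets that read higher in zebrafish brains after a fight with a real opponent and that do not belong to the best known early-response families. A probe set is a group of short probes on the array that together give 1 signal for a transcript. Members were chosen on the log2 signal. Each had a mean of at least 6 over the 12 arrays, a lowest value on the 6 winner and loser arrays above the highest value on the 6 mirror fighter and isolated arrays, and a mean difference of at least 0.5. Of the 9245 probe sets with a mean of at least 6, these values were met by 186, or 2.01%, and in the low direction by 274, or 2.96%. Among the 186, 30 probe sets for 23 genes were left out by name. They belong to the fos, jun, egr, nr4a and dusp families or are npas4a, bdnf, socs3a and other genes named in the rule. They are called early-gene probe sets below, a label taken from the exclusion and not from their timing. Also among them are dlg1a, tcima and the uncharacterised wu:fj62d01, which are of none of those families, so the label is loose for them. Of the 156 that remained, 80 carried a single symbol, for 79 genes, and 76 carried none. Their separation of real fights from the other experiences is what chose them, so it is described and not tested.

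All fish were adult AB wild-type zebrafish that had been kept alone for 5 days, and the manipulation lasted 30 min before the whole brain was collected. Winners and losers had fought a live opponent, mirror fighters had their own image as opponent, and isolated fish met nobody. Each group had 3 arrays of 1 colour, numbered 1 to 3. Since it is not stated if single or pooled brains were used, p-values measure only the spread between these samples, and the number of arrays limits the precision.

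A cell that is strongly stimulated first switches on genes for transcription factors that need no new protein, the early-response genes. Later come the genes those factors act on, among them kinases, receptors, channels and feedback inhibitors that adjust how the cell answers the next stimulus. In neurons such later genes are known for tuning excitability and synapse strength. With a single time point the data hold no order in time, so whether a member came on later than the early genes could not be measured. A list of activity-regulated later genes was drawn up with earlier results of these data known, and it also holds early genes such as ier2a. Of its 32 measured genes, 27 had a mean of at least 6 and 3 were members: plk2b, rrad and siah2l. Over the whole array, 156 of 15502 probe sets were members, and 9245 had a mean of at least 6. The list counts genes and the array counts probe sets, and enrichment was not tested. Since the order in time could not be measured, the members are called by their rule below.

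The member with the largest difference was socs1a, which encodes an inhibitor of JAK kinases and so dampens cytokine signalling. Its log2 signal on arrays 1 to 3 was 7.49, 7.28 and 6.68 in winners, 6.96, 7.10 and 6.65 in losers, 5.82, 4.85 and 5.02 in mirror fighters and 5.43, 6.38 and 4.50 in isolated fish. Real fights stood 3.23-fold above the other experiences, and the isolated fish were spread most widely, with array 2 close to the winner and loser level. The other probe set of socs1a, too dim to be a member, had a difference of 1.14 and also did not overlap.

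The kinase gene plk2b came next among named members. Its mammalian counterpart is induced by neuronal activity and weakens overactive synapses. It read 8.47, 8.20 and 8.62 in winners, 8.80, 8.36 and 8.89 in losers, 7.70, 7.35 and 7.67 in mirror fighters and 7.35, 6.82 and 7.17 in isolated fish, a difference of 1.21. Mirror fighters lay between the isolated fish and the fighters with real opponents but overlapped the isolated fish. The small GTPase gene rrad, whose mammalian product restrains calcium channels, read 7.50, 7.19 and 7.40 in winners, 7.08, 7.07 and 7.29 in losers, 6.22, 6.63 and 6.23 in mirror fighters and 6.26, 6.21 and 6.51 in isolated fish. Mirror fighters and isolated fish overlapped, and the gap between the closest arrays of a real fight and of the other experiences was 0.45.

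Several members were relatives of genes that the rule left out by name. The kinase gene sik3, a relative of sik1 that acts on coactivators of CREB, read 8.67, 8.82 and 8.73 in winners, 8.59, 8.90 and 8.55 in losers, 7.36, 7.002 and 8.50 in mirror fighters and 6.81, 7.43 and 8.23 in isolated fish. Array 3 of mirror fighters lay 0.05 below the lowest loser array. The antiproliferative gene btg1, a relative of btg2, had a difference of 0.72, and gadd45bb, the relative of the stress gene gadd45ba, one of 0.70. A further member was the repressor gene nfil3-6, and the rule named no nfil3 gene. It read 11.42, 10.67 and 11.09 in winners, 11.42, 11.14 and 11.09 in losers, 10.44, 10.39 and 10.52 in mirror fighters and 10.15, 9.92 and 10.44 in isolated fish. Another probe set of nfil3-6, with a mean under 6, had a difference of -0.02.

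Other signalling and transcription genes with large differences were gdf3, pbx1a, wnk1b and stox2a. The growth factor gene gdf3, known as a partner of nodal in the embryo, read 7.51, 8.40 and 7.95 in winners, 8.22, 8.16 and 7.84 in losers, 7.002, 5.32 and 7.36 in mirror fighters and 6.97, 7.17 and 7.31 in isolated fish. Mirror fighter array 2 was far below all others and adds to its 2.23-fold difference. The homeobox gene pbx1a, whose product partners Hox proteins, read 9.49, 9.83 and 9.45 in winners, 10.04, 9.93 and 9.70 in losers, 8.74, 8.42 and 9.35 in mirror fighters and 8.61, 8.47 and 9.22 in isolated fish. Its 2 other probe sets had differences of 0.67 and 0.57, with overlap. The kinase gene wnk1b, whose product regulates chloride transporters, read 10.45, 10.79 and 10.33 in winners, 10.63, 10.84 and 10.45 in losers, 9.75, 9.21 and 10.30 in mirror fighters and 9.17, 9.34 and 10.22 in isolated fish. The storkhead-box gene stox2a read 9.97, 10.17 and 9.80 in winners, 10.02, 10.13 and 9.75 in losers, 9.02, 8.68 and 9.61 in mirror fighters and 8.62, 8.89 and 9.56 in isolated fish. In both genes array 3 of mirror fighters and of isolated fish came within 0.2 of the lowest array of a real fight.

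The same signalling and transcription group, formed after the members were known, held 23 genes with a median difference of 0.73. Among them were the phosphatase subunits ppp2r2ca (0.73), ppp2r5d (0.56) and ppp3r1b (0.68), the last the regulatory subunit of calcineurin, which answers calcium. A brighter probe set of ppp3r1b had a difference of only 0.21 and a brighter one of ppp2r5d 0.09, both with overlap. The growth factor receptor gene igf1rb (0.73) and the Ras inhibitor gene dab2ipb (0.63) also belonged to it, as did the corepressor genes tle3b (0.73), irf2bp2b (0.71) and skia (0.60). The group also held the ubiquitin ligase gene siah2l (0.63), the Notch feedback gene nrarpb (0.54), bnip2 (0.51) and the kinase gene gsk3ab (0.50).

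**Figure D1:**
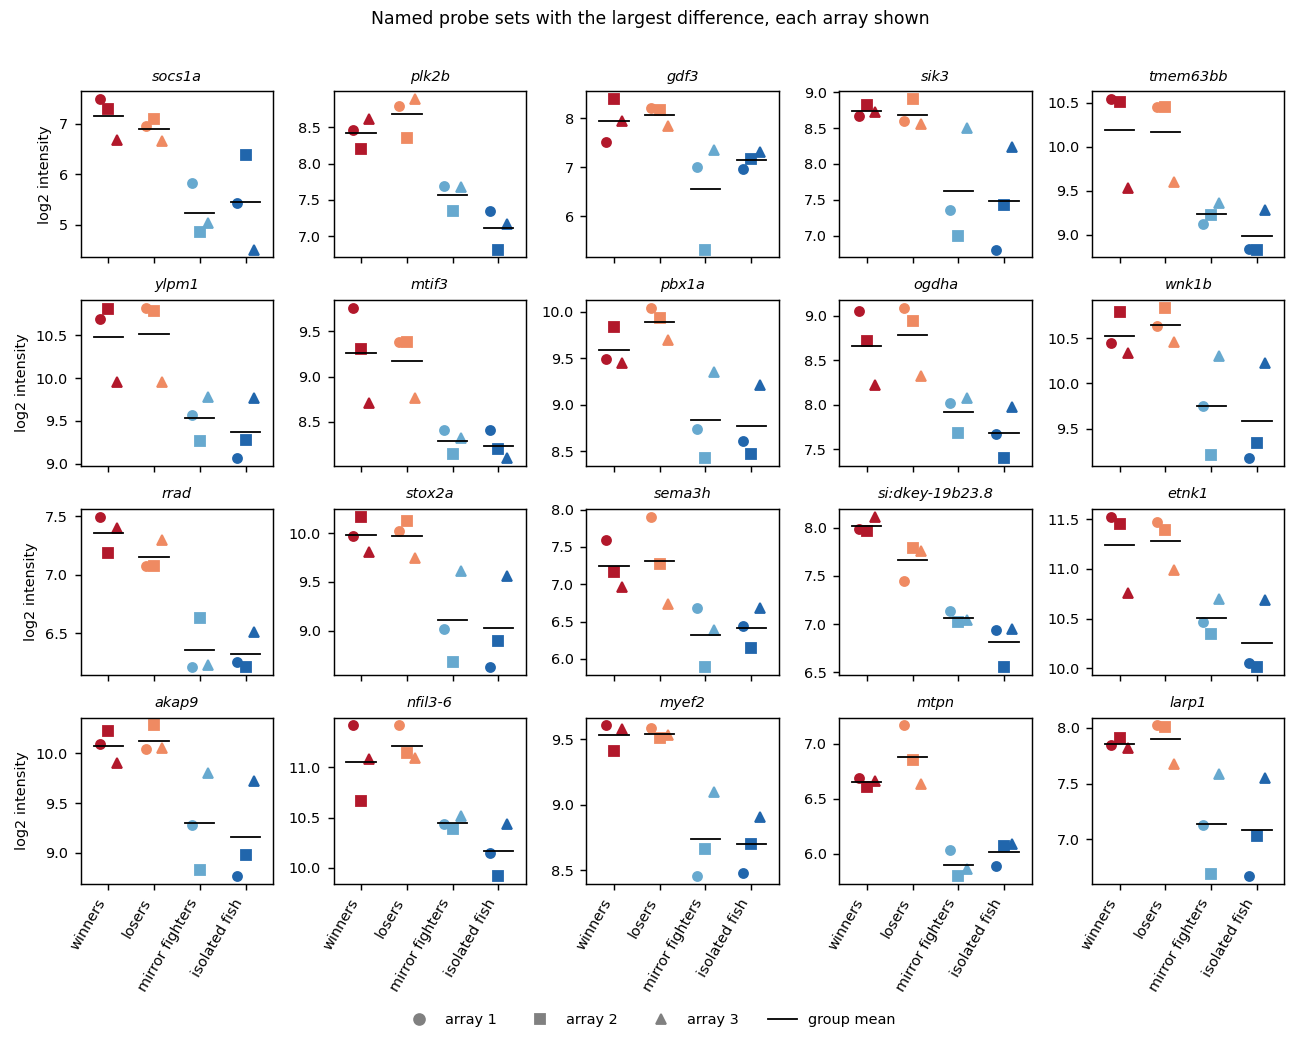
Log2 intensity (vertical axes) of the 20 single-symbol member probe sets with the largest mean difference, on each of the 3 arrays of winners, losers, mirror fighters and isolated fish. Symbols mark the array number and bars the group mean. All arrays of real fights lie above all others because the rule asked for it; in tmem63bb, ylpm1 and etnk1 array 3 of winners and losers lies lowest, and in sik3, wnk1b and akap9 array 3 of mirror fighters and isolated fish lies highest.

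Genes of RNA processing, translation and chromatin made up 22 of the 79 named genes, with differences of 0.51 to 1.05 and a median of 0.65. The largest was that of ylpm1, which encodes a nuclear protein of the YLP motif family. It read 10.69, 10.81 and 9.96 in winners, 10.82, 10.78 and 9.95 in losers, 9.57, 9.27 and 9.77 in mirror fighters and 9.06, 9.27 and 9.77 in isolated fish. Array 3 was the lowest in both fighting groups and the highest in both other groups, so that the gap between the closest arrays was 0.18 while the mean difference was 1.05.

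The RNA-binding repressor gene myef2 read 9.61, 9.41 and 9.58 in winners, 9.59, 9.51 and 9.53 in losers, 8.46, 8.66 and 9.10 in mirror fighters and 8.48, 8.70 and 8.91 in isolated fish, with real fights tightly grouped. The gene larp1, whose product controls translation of messages for the translation machinery, read 7.84, 7.91 and 7.82 in winners, 8.02, 8.01 and 7.68 in losers, 7.12, 6.69 and 7.59 in mirror fighters and 6.67, 7.03 and 7.55 in isolated fish. Here the 2 low groups again had array 3 nearest to the fighters.

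Splicing and RNA export were represented by rbm25b (0.77), rbm5 (0.55), pnisr (0.59), arglu1b (0.55), gpatch8 (0.67), nktr (0.66), sltm (0.64), taf15 (0.51) and the export gene thoc2 (0.54). Regulators of splicing in neurons and glia were qkia (0.72) and celf4 (0.69), and a further splicing regulator was rbfox1l (0.59). Chromatin genes were the remodellers chd1l (0.68) and chd7 (0.58), the methyltransferase gene prmt2 (0.66), the histone gene h3f3d (0.58), paxbp1 (0.58) and the DNA damage gene tp53bp1 (0.53), and the nuclear pore gene pom121 had a difference of 0.67. The arglu1b member had a further probe set that did not overlap either (0.36). For sltm, 2 of 3 further probe sets did not overlap (0.48 and 0.43), while the other had -0.09.

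Membrane, synapse and cell contact genes were 16, on 17 probe sets, with a median difference of 0.60. The ion channel gene tmem63bb, of a family of mechanically gated channels, had the largest. It read 10.54, 10.51 and 9.54 in winners, 10.45, 10.45 and 9.60 in losers, 9.13, 9.23 and 9.37 in mirror fighters and 8.84, 8.83 and 9.28 in isolated fish. Arrays 1 and 2 of both fighting groups were clearly apart from every other array, while array 3 of winners lay 0.17 above array 3 of mirror fighters, the closest pair.

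The secreted axon guidance gene sema3h read 7.59, 7.17 and 6.97 in winners, 7.91, 7.28 and 6.74 in losers, 6.69, 5.89 and 6.38 in mirror fighters and 6.44, 6.14 and 6.67 in isolated fish, with loser array 3 just above mirror fighter array 1. The anchoring gene akap9, which places protein kinase A at the Golgi and centrosome, was the gene with 2 member probe sets. The first read 10.09, 10.22 and 9.90 in winners, 10.04, 10.28 and 10.06 in losers, 9.28, 8.83 and 9.80 in mirror fighters and 8.77, 8.97 and 9.72 in isolated fish, a difference of 0.87. The second had a difference of 0.64, so 2 sets of probes for this gene met the rule separately.

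Genes of the synapse and the excitable membrane had smaller differences. They were the sodium channel subunit scn3b (0.75), the vesicle release gene rims2a (0.62), the axonal gene schip1 (0.69), the scaffold gene dlg5a (0.70), the neuronal surface gene adam23a (0.59) and the sodium pump subunit atp1b2a (0.60). The exchanger slc24a4a (0.59), the amino acid carrier slc38a2 (0.57), the matrix gene tnr (0.55), tspan4a (0.56), adam9a (0.53), fryl (0.53) and the neuronal filament gene neff1 (0.53) completed the group. For atp1b2a the 3 other probe sets had differences of 0.24 to 0.33, and for neff1 the other probe set had 0.06.

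Metabolic, mitochondrial and protein-handling genes were 13, with a median difference of 0.69. The mitochondrial translation gene mtif3 read 9.76, 9.30 and 8.71 in winners, 9.38, 9.38 and 8.76 in losers, 8.41, 8.15 and 8.32 in mirror fighters and 8.42, 8.20 and 8.10 in isolated fish. The citric acid cycle gene ogdha read 9.05, 8.72 and 8.22 in winners, 9.09, 8.94 and 8.32 in losers, 8.01, 7.68 and 8.07 in mirror fighters and 7.67, 7.40 and 7.97 in isolated fish. In both genes array 3 was the lowest of winners and of losers.

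The phospholipid synthesis gene etnk1 read 11.53, 11.45 and 10.76 in winners, 11.47, 11.39 and 10.98 in losers, 10.46, 10.35 and 10.70 in mirror fighters and 10.05, 10.01 and 10.69 in isolated fish, with 0.06 between the closest arrays. The ankyrin repeat gene mtpn read 6.69, 6.61 and 6.66 in winners, 7.17, 6.85 and 6.63 in losers, 6.04, 5.80 and 5.86 in mirror fighters and 5.89, 6.07 and 6.09 in isolated fish. Its gap of 0.51 was the widest of any named member, yet of its 2 other probe sets 1 had a difference of 0.37 and the other -0.18.

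Also in this group were the retromer gene vps26bl (0.76), the mitochondrial folate carrier slc25a32a (0.73), the chaperone genes hspa12a (0.69) and cct2 (0.50), fbxl3a (0.59), whose product targets clock repressors for degradation, dop1a (0.56), txndc5 (0.55), the peroxisomal gene hsd17b4 (0.52) and the arginine synthesis gene ass1 (0.51). The proliferation marker mki67 (0.52) and the kinase gene wee2 (0.66) formed a small group of cell division genes, and wu:fi42e03 (0.69) and kiaa0232 (0.59) were not assigned to any.

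The uncharacterised gene si:dkey-19b23.8 read 7.99, 7.96 and 8.11 in winners, 7.45, 7.78 and 7.76 in losers, 7.13, 7.02 and 7.04 in mirror fighters and 6.94, 6.55 and 6.95 in isolated fish. It was the only member in which none of the neighbouring groups overlapped, winners being above losers, losers above mirror fighters and mirror fighters above isolated fish. The middle step was fixed by the rule for every member. Of all probe sets with a mean of at least 6, winners lay wholly above losers in 3.86% and mirror fighters wholly above isolated fish in 4.54%.

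Among the 76 members without a symbol the median difference was 0.73, and 13 of the 19 members with a difference of at least 1 were of this kind. The widest gap of all members was in one of them. It read 10.91, 10.92 and 10.82 in winners, 10.74, 11.00 and 11.06 in losers, 9.48, 9.08 and 9.98 in mirror fighters and 8.99, 9.001 and 9.70 in isolated fish, with 0.76 between the closest arrays. Its difference was 1.54, second only to that of socs1a.

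Close to the thresholds, cct2 and gsk3ab were members with a difference of 0.50, while nit1 and an unnamed probe set missed with 0.496 and 0.497. The narrowest gaps inside were 0.001 and 0.002, and the widest just outside were -0.002 and -0.003, all in unnamed probe sets. By level, unnamed probe sets with means of 6.02 and 6.04 were in, and pou5f3 (5.97) and an unnamed one (5.96) were out. Not counting the genes left out by name, 94 bright probe sets missed only by difference, 581 only by overlap and 52 only by level. Leaving out a single array loosens the demand for no overlap, and the number of members then came to 301 without isolated array 3, 253 without mirror fighter array 3 and 246 without loser array 3, in each case with at least 151 of the 156 among them.

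Averaged over the 156 members, the log2 signal on arrays 1 to 3 was 9.21, 9.24 and 8.94 in winners, 9.24, 9.17 and 8.92 in losers, 8.46, 8.24 and 8.54 in mirror fighters and 8.19, 8.25 and 8.60 in isolated fish. Array 3 was thus the lowest of both fighting groups and the highest of both others. For the 30 early-gene probe sets left out, the averages were 8.78, 8.80 and 8.76 in winners, 9.06, 9.08 and 9.05 in losers, 7.70, 7.57 and 7.77 in mirror fighters and 7.28, 7.18 and 7.22 in isolated fish. These averages were tight within each group and rose from isolated fish to mirror fighters. The further step up to winners and losers was fixed by the rule, whose values these probe sets also met. Single early-gene probe sets did not all do so. That of cebpd ranged from 6.50 to 9.01 over the winner arrays. Mirror fighters averaged above isolated fish in 24 of the 30, against 51.5% of all bright probe sets, while socs3a stood at -0.81. The 30 stand for 23 genes, so some genes are counted more than once.

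The hybridization controls, bacterial RNAs added to each sample after labelling, were also higher after real fights. Over 18 control probe sets they averaged 11.37, 11.11 and 10.99 in winners, 11.26, 11.12 and 10.74 in losers, 10.17, 10.18 and 10.33 in mirror fighters and 10.32, 10.22 and 10.15 in isolated fish. Winner and loser arrays were 1.83-fold brighter in them, at 11.10 ± 0.22 (SD, n = 6) against 10.23 ± 0.08 on the other 6 arrays, and the 27 poly-A control probe sets, added before labelling, were 1.37-fold brighter (two-sided exact permutation p = 0.00216 for each, the smallest value the 924 splits can give). In winners and losers the array lowest in members was also the lowest in the hybridization controls. In mirror fighters the array highest in members was the highest in these controls, but in isolated fish array 3 was the highest in members and the lowest in these controls. The poly-A controls went the same way except in winners, where array 2 (6.66) and not array 3 (6.73) was the lowest. Between mirror fighters and isolated fish the hybridization controls differed by 0.00 and the poly-A controls by -0.17. The part of the shift in the controls in the members' values was not tested.

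**Figure D2:**
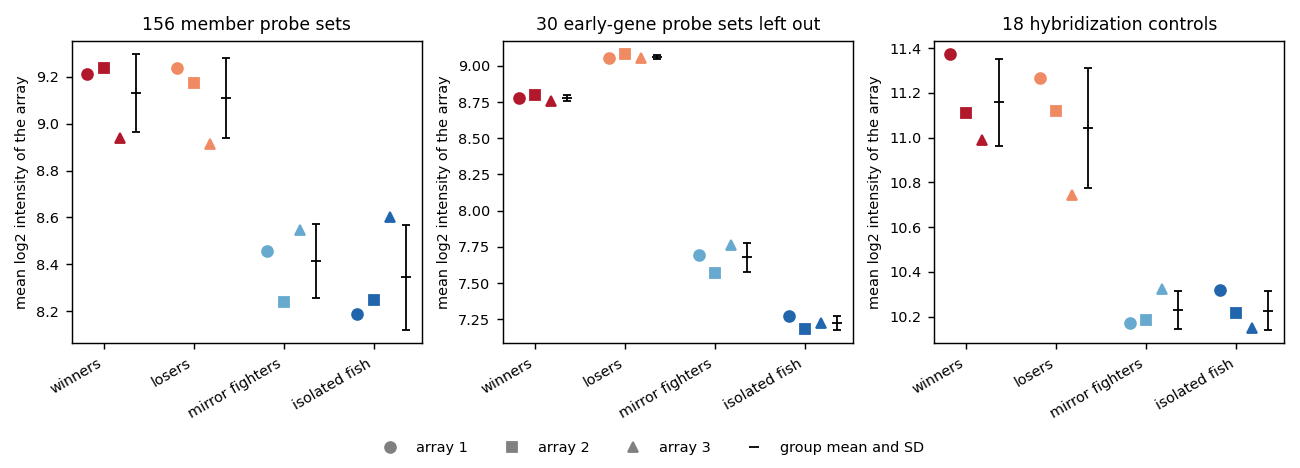
Mean log2 intensity per array (vertical axes) of the 156 members, of the 30 early-gene probe sets left out by name and of 18 hybridization controls, for winners, losers, mirror fighters and isolated fish; symbols mark the array number and bars the group mean with its SD (n = 3). Members and controls were both lowest on array 3 among winners (8.94 and 10.99) and among losers (8.92 and 10.74), and both highest on it among mirror fighters. Among isolated fish array 3 was the highest in members (8.60) but the lowest in controls (10.15). The averages of the early genes were level within each group, though single ones were not.

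The arrays numbered 3 set the edge of most members. The lowest of the 6 winner and loser arrays was an array 3 in 118 members (75.6%) and in 30.0% of all probe sets with a mean of at least 6. The highest of the 6 other arrays was an array 3 in 119 members (76.3%), against 48.1% of all. Both held for 91 members (58.3%), against 46.7% of the early-gene probe sets and 16.6% of all bright ones. Array 3 was the lowest of winners and also of losers in 93 members (59.6%), against 18.8% of bright probe sets, and the highest of mirror fighters and also of isolated fish in 93 (59.6%), against 29.9%. These shares are a description, since a rule on extremes bears on them.

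Members also differed from other bright probe sets in annotation. No symbol was given for 48.7% of the members and for 26.7% of all bright probe sets, and before the exclusion by name the share was 40.9%. The name carried the mark A1 in 73.7% of members and in 57.0% of all bright probe sets. Bright probe sets without a symbol had a median difference of 0.15, against -0.07 for those with 1 symbol. The members' median level was 8.88, against 7.99 for all bright probe sets.

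**Figure D3:**
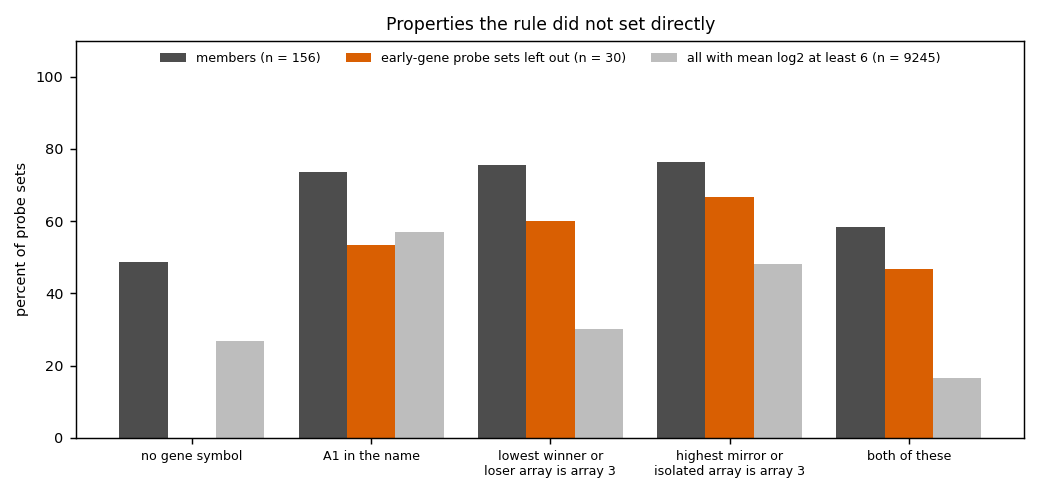
Percent of probe sets (vertical axis) with each property, for the 156 members, the 30 early-gene probe sets left out by name and all 9245 probe sets with a mean log2 of at least 6. No symbol (48.7% against 26.7%), an A1 name (73.7% against 57.0%) and an array 3 at both edges (58.3% against 16.6%) were more frequent among members than among all bright probe sets; the early genes have no bar for the first because they were chosen by symbol.

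Mirror fighters were set against isolated fish to ask how the members read after a fight against an image. The rule did not use this difference but bounded it, since every array of both groups had to lie below every winner and loser array. A gene that a mirror fight brought up to the level of a real fight could not be a member, so the counts and medians below describe the chosen probe sets and do not show that genes of this kind were unmoved by a mirror fight. No member passed in limma's moderated test at an adjusted p under 0.05, and 0.0% of all 15502 probe sets did. At an unadjusted p under 0.05 there was 1 member of 156, against 3.83% of all probe sets and 3.03% of bright ones. That was plk2b, at 7.57 ± 0.19 in mirror fighters and 7.11 ± 0.27 in isolated fish (SD, n = 3), a difference of 0.46 ± 0.20 (SE, limma adjusted p = 1) with a 95% interval from 0.01 to 0.90. The median difference over members was 0.08, with 112 of 156 above 0, and over all bright probe sets 0.01, with 51.5% above 0.

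All mirror fighter arrays lay above all isolated arrays in 3 members, 1.92%, where the background was 4.54%, and below them in 2 members, mki67 and an unnamed one, where the background was 5.29%. Among the 30 early-gene probe sets left out, 11 lay above without overlap and none below, and their median difference was 0.20. Several of the 11 were probe sets of 1 gene, fosab, and so are not separate cases. The largest of these were fosab (1.86), npas4a (1.64) and nr4a1 (1.36), with adjusted p-values that did not pass. The half-width of the 95% interval had a median of 0.46 for single members, so differences of that size could not be told from none.

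Winners were set against losers to ask how the members read by the outcome of a real fight. Here too the rule bounded the difference, since all arrays of both groups had to exceed the same level, which disfavours genes that differ between them, and the counts and medians are again a description. No member passed in limma, and 0.0% of all probe sets did. At an unadjusted p under 0.05 there was 1 member, si:dkey-19b23.8, against 4.14% of all probe sets and 1.54% of bright ones. It averaged 8.02 ± 0.08 in winners and 7.66 ± 0.19 in losers, a difference of 0.36 ± 0.15 (SE, n = 3, limma adjusted p = 0.9997) with a 95% interval from 0.03 to 0.68.

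The median difference between winners and losers was 0.02 over the members, with 90 of 156 (57.7%) above 0. Over all bright probe sets it was 0.04, with 60.9% above 0. Winner arrays lay wholly above loser arrays in si:dkey-19b23.8 and chd7, 1.28% of members against a background of 3.86%, and wholly below in none, against 1.62%. The early-gene probe sets had a median of -0.30, with 28 of 30 lower in winners and 8 wholly below, counts in which fosab again appears more than once. Single members ranged from -0.30 in pbx1a to 0.38 in chd7, both without passing.

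**Figure D4:**
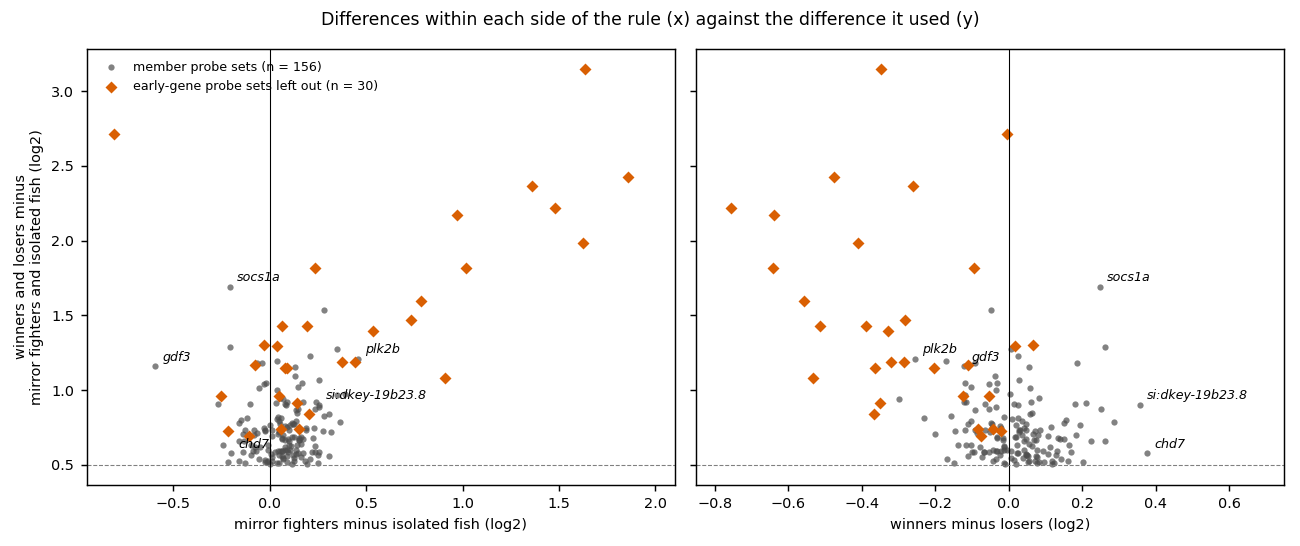
Differences on the log2 scale between mirror fighters and isolated fish (left, horizontal axis) and between winners and losers (right, horizontal axis), each against the difference that chose the members (vertical axis, dashed line at 0.5), 1 point per probe set. The members' medians are 0.08 and 0.02, and early-gene probe sets left out by name reach 1.86 on the left and -0.76 on the right; the rule bounded both differences for either set.

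Further probe sets of the same genes gave a reading that the rule did not choose, though on the same arrays. There were 45 for 26 of the named genes. Of these 31 had a difference above 0 and 5 did not overlap (11.1%), where 2.23% of all probe sets were higher without overlap. The median difference of the 45 was 0.21, and that of all probe sets 0.00. Some share the member's name up to its ending and may not be a separate reading, among them the sltm probe set with a difference of 0.485. Among the 28 with a mean of at least 6, 22 were above 0 and the median was 0.32, against 1 of -0.03 over all bright probe sets. The 4 that did not overlap belonged to arglu1b, atp1b2a and sltm, all with differences under 0.5.

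Disagreement was clearest for txndc5, which encodes a disulfide isomerase of the endoplasmic reticulum. Its member probe set had a difference of 0.55, while its 5 other probe sets had differences of -0.51 to -0.27. For mki67 a dim probe set stood at -0.93, and for sik3 a dim one at 0.07. A brighter probe set of cct2 stood at 0.08, and those of tle3b at -0.10 and, in a dim one, 0.46, all with overlap. For nktr (0.63) and tspan4a (0.55) a further probe set came close to the member's difference but with overlap, and for igf1rb it stood at 0.59.

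**Figure D5:**
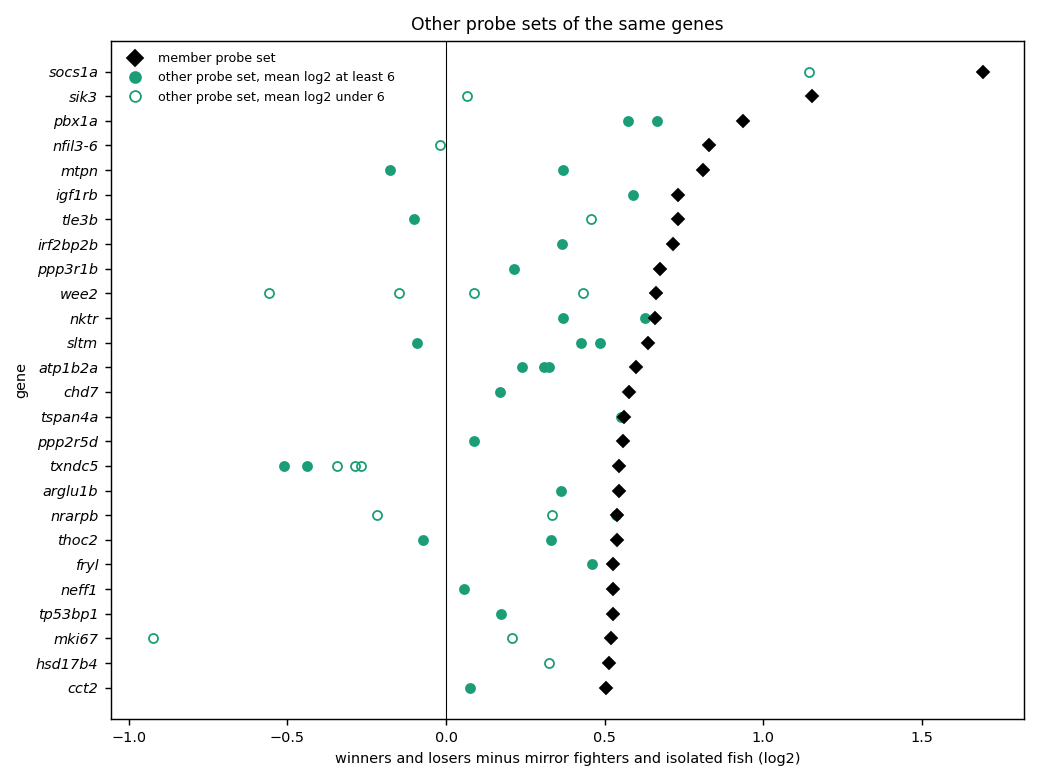
Difference between winners and losers and the other 2 groups (log2, horizontal axis) for the 26 member genes (vertical axis) with further probe sets; diamonds are member probe sets, filled circles other probe sets with a mean log2 of at least 6 and open circles dimmer ones. Most circles lie above 0 (31 of 45) but left of their diamond, and the 5 of txndc5 lie below 0.

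Related genes that were not members were followed through lists drawn up with earlier results known. For them winners and losers together were compared with mirror fighters and isolated fish in limma, where 4.05% of all probe sets were higher and 6.15% lower at an adjusted p under 0.05, and the median of all was 0.00. In all 1582 passed, and 2420 did once winner and loser arrays of the same number were blocked as pairs, a pairing that the sample titles do not state. Of 29 further activity-regulated later genes, 5 rose, none fell and 24 did not pass, with a median of 0.16. Those that rose included the early genes ier2a (1.12 ± 0.24, SE) and ier5 (0.36 ± 0.10). The others were the kinase gene plk3 (0.48 ± 0.11), scg2a (0.45 ± 0.11), which encodes a granule protein of neurosecretory cells, and the pentraxin gene nptx1l (0.56 ± 0.16). The list does not sort its genes by timing, so a rise in it does not mark a gene as later. Of the 6 genes listed for exclusion by name that did not meet the values of the rule, mvp (1.64 ± 0.20) and junbb (1.06 ± 0.27) rose. The other 4 did not pass, crema among them (0.39 ± 0.14). The gene mvp, of none of the early-response families named above, missed the values of the rule only by its mean of 5.70.

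In other response lists few genes passed. None of 14 glucocorticoid response genes did, with a median of 0.18 and values of -0.65 for pomca, 0.30 for tsc22d3 and 1.17 ± 0.51 (SE) for klf9. The last spread widely, with 2.47 between mirror fighters and isolated fish, as did fkbp5, at 1.12 ± 0.55 with 2.00 between these groups, named after its values were seen. Of 8 MAP kinase feedback genes, il17rd fell (-0.61 ± 0.12) and 7 did not pass, with spry4 at 0.99 and rgs2 at -0.35. This list held none of the dusp genes, which encode MAP kinase phosphatases and were excluded by name. Among those, dusp1 (1.17), dusp5 (0.92) and dusp2 (0.84) met the values of the rule, while dusp6 (0.27) and dusp4 (0.14) did not pass. Of 21 heat shock and unfolded protein genes, herpud1 fell (-0.48 ± 0.10) and 20 did not pass, with pdia4 at -0.40 and dnaja1 at 0.34. None of 15 hypoxia genes passed, with igfbp1a at 0.44, bnip3 at 0.40 and ndrg1a at -0.51.

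Markers of cell types also differed between the same arrays, and in whole tissue fewer cells of a type and less RNA per cell cannot be told apart. All 13 measured neuron markers had means of at least 6, with a median level of 11.9, while 0 of 5 pituitary and 1 of 13 eye markers did. Among neuron markers elavl3 (0.80 ± 0.20) and gad2 (0.48 ± 0.13) rose and 11 did not pass, with syt1a at 0.45. The log2 of their summed signal ranged from 15.7 to 16.0 on winner and loser arrays and from 15.5 to 15.8 on the others.

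Of 16 microglia and leukocyte markers, ncf1 (-1.28 ± 0.29), cxcr4b (-0.88 ± 0.21) and csf1ra (-0.59 ± 0.14) fell, the last 2 dim with means of 5.27. None rose and 13 did not pass, with a summed signal of 11.0 to 13.4 against 12.4 to 13.6. Of 13 meningeal and connective tissue markers, tgfbi (-0.82 ± 0.14), timp2b (-0.80 ± 0.16), the dim foxc1b (-0.59 ± 0.14) and foxc1a (-0.65 ± 0.18) fell. The other 9 did not pass, and the sums over the list were 12.2 to 12.8 against 12.7 to 12.9. The dim endothelial gene fli1 fell (-1.08 ± 0.18) while 5 did not pass, kdrl (-0.34) and tie1 (-0.28) among them. The sums over this list were 8.57 to 9.50 against 9.20 to 9.63.

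Among 11 radial glia markers her4.2 fell (-0.80 ± 0.22) and 10 did not pass, slc1a3a standing at -0.87 and sox2 at -0.15, and none of 5 oligodendrocyte markers passed, with olig2 at -0.26, sox10 at 0.28 and mbpb at -0.12. Of 13 erythrocyte markers the dim fech (1.36 ± 0.16) and ank1a (1.07 ± 0.19) rose and 11 did not pass, with slc4a1a at -0.73. Of 16 liver and plasma markers ahsg1 rose (0.47 ± 0.11), and the dim serpina1l (-1.47 ± 0.30) and tfa (-0.94 ± 0.20) fell. Of 13 muscle markers atp2a1 rose (0.49 ± 0.10), with the dim tnni2a.4 at 1.41 and the dim acta1a at 0.57 not passing. The muscle median was 0.09, and several markers lay below 0, pvalb2 (-0.59) among them. No pituitary marker passed (pomca at -0.65, gh1 at -0.26 and cga at 0.17), and their median was -0.02. Nor did any eye marker (opn1lw1 at 0.36, cryaa at 0.35 and gnat1 at 0.40). The eye median was 0.15, and some eye markers lay below 0, rpe65a (-0.48) among them. No marker was at the floor of the scale on all arrays. The part of these markers in the members' values was not tested.

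Of the 26 list genes that passed, the calls but not the differences depended on single arrays. Without any 1 array each difference stayed at 0.794 to 1.23 times its size over all arrays and kept its direction. Only 6 still passed without isolated array 1 and without mirror fighter array 1, 7 without isolated array 2 and without mirror fighter array 2, 11 without loser array 1, 12 without winner array 1 and 16 without loser array 2 and without winner array 2. Without any array 3, 22 to 24 passed. Once the level of the hybridization controls was a covariate none did. That level does not overlap between the compared sides, so this fit cannot separate it from them and no conclusion is drawn from its differences. They were -1.39 to 2.55 times their size without the covariate, 21 of the 26 kept their direction, 5 turned and 13 were at least as large. Among those 13, mvp stood at 2.25, plk3 at 0.92 and ncf1 at -3.09, while fech, not among them, stood at 1.34. The genes mvp, fli1, fech and tgfbi passed in every other alternative they were run under.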

How the data were processed

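RNA of 12 whole brains or pools was hybridized to Affymetrix zebrafish arrays, per the labels' protocols from 100 ng of total RNA by the 3 prime in vitro transcription kit. The deposited values were linear intensities, 1 for each probe set on an array, with a floor of 1. How it was summarised and normalized is not given in the sources used here, and the submitters' processing notes name Partek 6.6 without its role. Median intensities were 94.1 to 104, and at most 0.109% of the values of any 2 arrays were identical.

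The log2 was taken without an offset, and 115 control probe sets were left out. The platform annotation gave 10795 of 15502 probe sets 1 symbol, 135 several and 4572 none, and only single symbols were used as names. All 80 named members were found in the zebrafish RefSeq gene table under the same symbol. Coordinates and sequences were not used here.

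Group means over the 12 arrays were modelled for all probe sets with limma 3.58.1 (R 4.3.3; 8 residual and 2.55 prior degrees of freedom), with Benjamini-Hochberg adjustment over all probe sets of a contrast and a threshold of 0.05. Spiked controls were compared by exact permutation (scipy 1.17.1). Lists used the brightest probe set per gene. Alternatives were quantile normalization, centring, a filter on the dimmest 25%, 32 added before log2, trend and robust moderation, the control level as covariate, a replicate block and leaving out each array. The scripts were tested on simulated data.

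Named in full were the 20 named members with the largest difference, the nearest 2 to each threshold, and from each list every called gene and up to 3 with the smallest p. Members and lists were chosen with earlier results of these data known, and gene roles were grouped after the members were known. The sample titles number the arrays without saying that the numbers pair them. Deviations from the group means of same-numbered winner and loser arrays had correlations of 0.112, 0.111 and 0.233. Winner and isolated arrays gave 0.184, 0.058 and -0.015, and loser and isolated arrays 0.028, 0.098 and 0.099. Winner and mirror fighter arrays gave -0.003, -0.022 and -0.046, and loser and mirror fighter arrays 0.026, -0.04 and -0.021. For mirror fighter and isolated arrays they were 0.046, -0.022 and 0.211. The block that paired winner and loser arrays by number therefore rests on an assumption, and mirror fighter and isolated arrays were not paired in it.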

Additional observations from a re-analysis of the deposited data

How the results depend on the processing

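The number of members was 166 after quantile normalization, with 123 of the 156 shared, and 126 with 32 added before log2, also with 123 shared. It came to 283 after centring each array on its median, with all 156 among them, to 19 with a difference of at least 1 and to 124 with a mean of at least 7. Leaving out 1 array gave 141 to 301. No member passed in mirror fighters against isolated fish or in winners against losers under any of the 20 alternative fits, the replicate block included. The members' median ranged from -0.01 to 0.22 in the first comparison and from -0.08 to 0.11 in the second. For winners and losers against the other 2 groups 1582 probe sets passed, 628 higher and 954 lower. After centring these were 1081 and 624. The count was 2420 with a replicate block among winner and loser arrays and 1351 with a replicate block over all arrays. It was 0 with the control level as covariate, which did not overlap between the 2 sides, and 235 to 2144 without 1 array. The cause of these shifts was not tested. With the covariate 21 of the 26 list genes that passed kept their direction, 13 with a difference at least as large. The direction turned for junbb (-0.036), her4.2 (1.12), ank1a (-0.081), serpina1l (0.14) and ahsg1 (-0.30). Since the covariate cannot be separated from the 2 sides, no conclusion is drawn from these values.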
